A study of Mus musculus with 9 samples.

Results

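S100 proteins are small calcium-binding proteins of the EF-hand type that mostly work as dimers. Calcium opens a hydrophobic face through which they bind partners such as annexins, cytoskeletal proteins and p53, and several are also released and act outside the cell on receptors such as RAGE. Most of their genes lie side by side in a single cluster, which is on chromosome 3 in the mouse, while S100b lies apart. In macrophages and neutrophils the family is best known for S100A8 and S100A9, which together form calprotectin, whereas S100B is used as a marker of glia, Schwann cells, melanocytes and cartilage.

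The genes described here were chosen by symbol, as members of the S100 family, with their levels in these data already known. The other S100 genes, none of which reached 1 FPKM, are described apart from them. The 10 were S100a1, S100a3, S100a4, S100a5, S100a6, S100a10, S100a11, S100a13, S100a16 and S100b, 10 of the 56289 genes in the table, and all 10 were among the 25417 genes above 0 in at least 3 of the 9 libraries, which were tested. Poly(A) RNA was sequenced from cultures labelled as RAW264.7, a macrophage-like line from a BALB/c mouse. The control group (Con) was untreated, the TNF-α group received TNF-α for 24 h, and the TNF-α+WBT group received TNF-α together with an extract of the herbal Wang Bi tablet, called WBP in the labels and WBT in the study, for 24 h. In the study's methods the TNF-α was a human recombinant protein at 20 ng/ml, and control cells received PBS, while the labels call Con untreated. Several extract doses are listed there, and the study's transcriptome section gives 1.0 μg/ml for the sequenced group. Each group had 3 libraries of 1 line. The study calls them biological replicates, while the labels do not name separate cultures, and p-values measure the spread between these libraries. Levels are in FPKM, fragments scaled to the length of the transcript and the depth of the library, so that they can be compared between genes.

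The labelled cell type was checked first. Of 16 macrophage markers, Cd14 alone lay above 1 FPKM in all 9 libraries, while 7 of the 16 were listed at 0 in every library (Adgre1, which encodes F4/80, Ctss, Cybb, Itgam, Ptprc, which encodes CD45, Spi1, which encodes PU.1, and Tyrobp). The 18 housekeeping genes looked at were above 0 in all libraries. The libraries instead held 9 of 12 fibroblast markers and 6 of 10 Schwann cell markers above 1 FPKM throughout, with Sox10 between 77.0 and 103.1 FPKM. The measured cells are therefore called the cultures below, and no cell type is assigned to them. Depth is not given with FPKM values. Estimated from the step that a single fragment adds to long genes with 1 transcript, it was 16899200 to 26199200 fragments per library, with 20326900 to 26199200 in Con, 18907300 to 22463500 in TNF-α and 16899200 to 19861300 in TNF-α+WBT. Between 49.4% and 55.3% of low values lay within 0.1 of a whole fragment, against 20% by chance, so that fragment numbers below are approximate. A doubled depth would fit these steps as well, and only a range below that was searched. The fragment numbers and the limit of detection rest on this choice.

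S100a4 dominated the family. S100A4 is a calcium sensor known for binding non-muscle myosin and for its link to cell motility. Its level was 1131, 1113 and 1078 FPKM in Con, 1154, 1231 and 1373 FPKM with TNF-α, and 1260, 1092 and 1161 FPKM with TNF-α+WBT. It made up 56.95% of the summed level of the 10 genes and ranked between 30th and 46th of all genes of the table in each library. The order of the others, as mean ± SD over the 9 libraries, began with S100a11 at 325.4 ± 19.4 FPKM, S100a10 at 272.1 ± 9.29 FPKM and S100a6 at 243.6 ± 11 FPKM. These 3 lay close together. Their ranges overlapped between neighbours in the order, although S100a11 was above S100a10, and S100a10 above S100a6, in 9 of 9 libraries each.

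Below S100a6 the levels dropped 14.27-fold to a middle group. It held S100a13 at 17.1 ± 1.64 FPKM, S100a16 at 13.6 ± 2.06 FPKM and S100a1 at 11.8 ± 0.623 FPKM. Neighbours within it were not separated in level, with S100a13 above S100a16 in 8 of 9 libraries and S100a16 above S100a1 in 7 of 9. S100b (4.22 ± 1.89 FPKM), S100a3 (1.56 ± 0.603 FPKM) and S100a5 (0.188 ± 0.163 FPKM) formed the low end, and each was above the next in 9 of 9 libraries. The sum of the 10 genes ran from 1928 to 2052 FPKM in Con, from 2035 to 2256 FPKM with TNF-α and from 1983 to 2151 FPKM with TNF-α+WBT, so that the groups overlapped. It was 0.45% to 0.516% of all FPKM in a library.

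**Figure D1:**
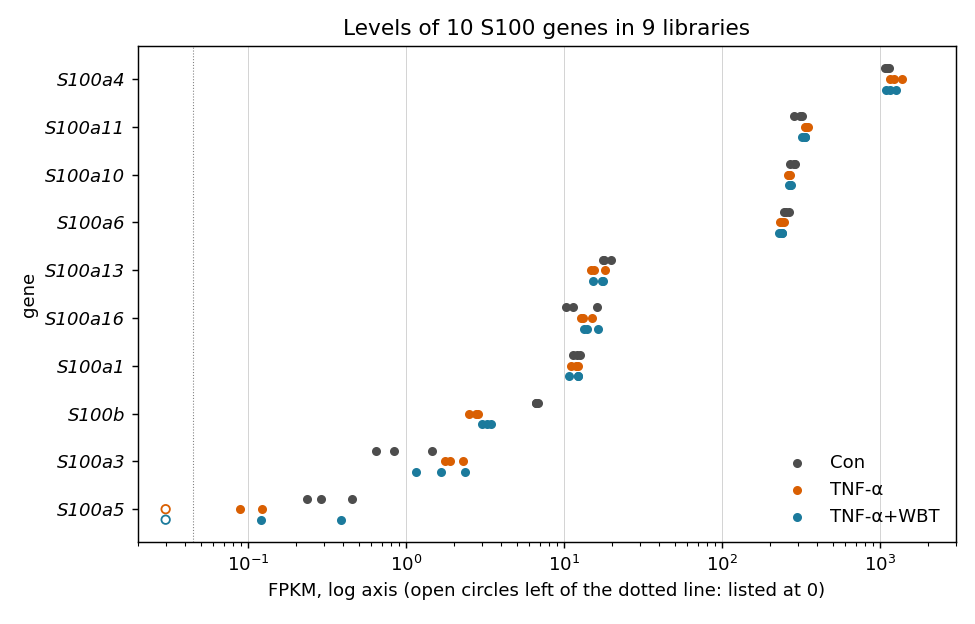
Level of each S100 gene in each library (horizontal log axis, FPKM; 1 point per library, 3 per group; open circles, listed at 0). S100a4 lies near 1177 FPKM, 3 genes between 228.2 and 350.9 FPKM, 3 between 10.2 and 19.9 FPKM, and the Con points of S100b (6.61 to 6.87 FPKM) lie above all its treated points (2.49 to 3.46 FPKM).

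The family members that mark myeloid cells were at or close to 0. S100a9 was listed at 0 in all 9 libraries, where up to 3 fragments, or 0.224 to 0.347 FPKM, would not have been told from 0. S100a8 was listed above 0 only in TNF-α replicate 1, at 0.0953 FPKM. Of the 8 other S100 genes looked for, 7 were in the table and 4 were tested, and none reached 1 FPKM in any library. S100a7a, a relative of psoriasin, was the highest of them at 0.21 to 0.831 FPKM. S100a14 reached at most 0.209 FPKM, S100a2 0.104 FPKM, S100g (calbindin-D9k) 0.13 FPKM and S100z 0.149 FPKM. The 1 annotated transcript of S100a2 had 0 fragments in all 9 libraries, so its gene value is not a level of that transcript. S100z was above 0 only in TNF-α+WBT replicate 3, on about 1 fragment. The fused-type S100 genes, the epidermal filaggrin group, stayed under 1 FPKM as well, with 4 of 7 at 0 in all libraries.

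Neighbours within the gene cluster differed widely in level. On GRCm38 (GENCODE M21) S100a1 (chromosome 3, 90511034 to 90514392, minus strand) and S100a13 (90514435 to 90524581, plus strand) are divergent, with 42 bases between their first bases. They are followed by S100a16 (90537254 to 90543151), S100a3 (90560578 to 90602702), S100a4 (90603771 to 90606045), S100a5 (90608523 to 90611780) and S100a6 (90612882 to 90624181). S100a5, the lowest gene of the set, thus lay 2477 bases after S100a4 and 1101 bases before S100a6, both of them abundant. S100a11 (93520488 to 93526287) and S100a10 (93555080 to 93564643) form a separate pair 2896306 bases further on, and S100b is alone on chromosome 10 (76253853 to 76261159).

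Upstream sequence is shown for S100b, the gene that fell with TNF-α, for S100a4, the most abundant, for S100a11, which had the most motif matches, and for the gap shared by S100a1 and S100a13. The 250 bases before the RefSeq start (GRCm38.p6, plus strand) were searched on both strands for TATAAA (the core of the TATA box), for GGGCGG (the core of the GC box), for TGANTCA (the AP-1 motif) and for the kappaB motif, and matches are in capitals. Windows, 13 in all, were held for 9 of the members.
S100b, chr10:76253586-76253835: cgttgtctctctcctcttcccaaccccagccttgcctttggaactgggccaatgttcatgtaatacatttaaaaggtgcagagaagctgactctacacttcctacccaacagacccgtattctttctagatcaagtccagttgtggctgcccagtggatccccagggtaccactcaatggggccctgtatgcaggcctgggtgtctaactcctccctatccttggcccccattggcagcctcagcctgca
S100a4, chr3:90603520-90603769: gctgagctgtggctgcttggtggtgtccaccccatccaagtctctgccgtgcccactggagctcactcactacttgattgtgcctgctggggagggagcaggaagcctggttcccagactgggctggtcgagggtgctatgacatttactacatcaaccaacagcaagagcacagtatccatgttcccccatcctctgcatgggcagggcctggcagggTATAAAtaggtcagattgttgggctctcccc
S100a11, chr3:93520246-93520495: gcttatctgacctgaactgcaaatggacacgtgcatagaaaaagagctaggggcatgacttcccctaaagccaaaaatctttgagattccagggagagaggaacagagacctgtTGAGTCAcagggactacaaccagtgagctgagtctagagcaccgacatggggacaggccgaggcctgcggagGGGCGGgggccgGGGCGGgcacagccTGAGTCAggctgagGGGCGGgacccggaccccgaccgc
S100a1 to S100a13, chr3:90514393-90514434: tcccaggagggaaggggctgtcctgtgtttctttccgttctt

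The S100a4 window held TATAAA beginning 31 bases before the start, which 12.4% of 32851 promoter windows of the same length hold somewhere. The S100a11 window held GGGCGG 3 times and the AP-1 motif 2 times, against at least 1 match in 32.7% and 6.7% of windows. Windows not shown held matches too. TATAAA began 52 bases before a start of S100a3, and GGGCGG 116 bases before another. In a window of S100a16, GGGCGG began 30 bases and the AP-1 motif 192 bases before the start. The S100b window and the gap between S100a1 and S100a13 held none of the motifs, and no member's window held the kappaB motif, which 7.3% of windows hold. A missing match says only that these letters are not in the 250 bases.

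In TNF-α against Con, the comparison that asks what the cytokine changed, S100b fell and no other gene of the set passed the test. S100B is the family member best known as a glial protein, and it binds p53 and, outside the cell, RAGE. Its level was 6.87, 6.62 and 6.61 FPKM in Con and 2.77, 2.49 and 2.86 FPKM with TNF-α, so that the groups lay far apart with little spread in either. On the log2(FPKM + 0.1) scale it fell by 1.28 (SE 0.09, 95% interval -1.48 to -1.08, limma adjusted p = 6.91e-05), a change of -58.8%. These levels rest on about 199.4 to 267.3 fragments per Con library and 80.3 to 86.6 per TNF-α library. In bulk RNA, fewer cells that express a gene and less RNA per cell cannot be told apart. With 3 libraries against 3, the exact two-sided permutation p was 0.1, the smallest such a design can give.

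Among the 10 genes, 1 had an adjusted p under 0.05, where 4.86% of all genes tested did. The study's thresholds are a fold change above 2 and a p under 0.05. They were applied here to unadjusted limma p-values, not to the study's own test, so passing genes need not be its calls. The number of members past them was 3 (S100b, S100a3 and S100a5), against 2.42% of all genes. That number was 1 with 1 FPKM added in place of 0.1, and also without Con replicate 1, Con replicate 3 or TNF-α replicate 1. It was 2 with 0.01 FPKM added, under quantile normalization and with summed transcript values. It was also 2 with no filter on low genes, and with genes under a mean of 1 FPKM left out. S100a3 passed at a fold of 2.02. An unadjusted p under 0.05 alone was reached by 8 of the 10, against 16.1% of all genes, and the groups did not overlap for 7 of the 10, against 21.2%. Both shares are over all 25417 genes tested, of which 6658 had a mean of 10 FPKM or more. Shares at the levels of these members were not taken. Of the 4 other S100 genes tested, all of them under 1 FPKM, 0 met either condition. Of genes with a mean of 10 FPKM or more, 10.6% had an adjusted p under 0.05 in this comparison, and 0 of the 7 S100 genes at that level did, against 0.015% of such genes in TNF-α+WBT against TNF-α and 7.86% in TNF-α+WBT against Con, again with 0 of the 7 in both. The median log2 fold change of the 10 was -0.06, and that of all genes tested was 0.00.

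**Figure D2:**
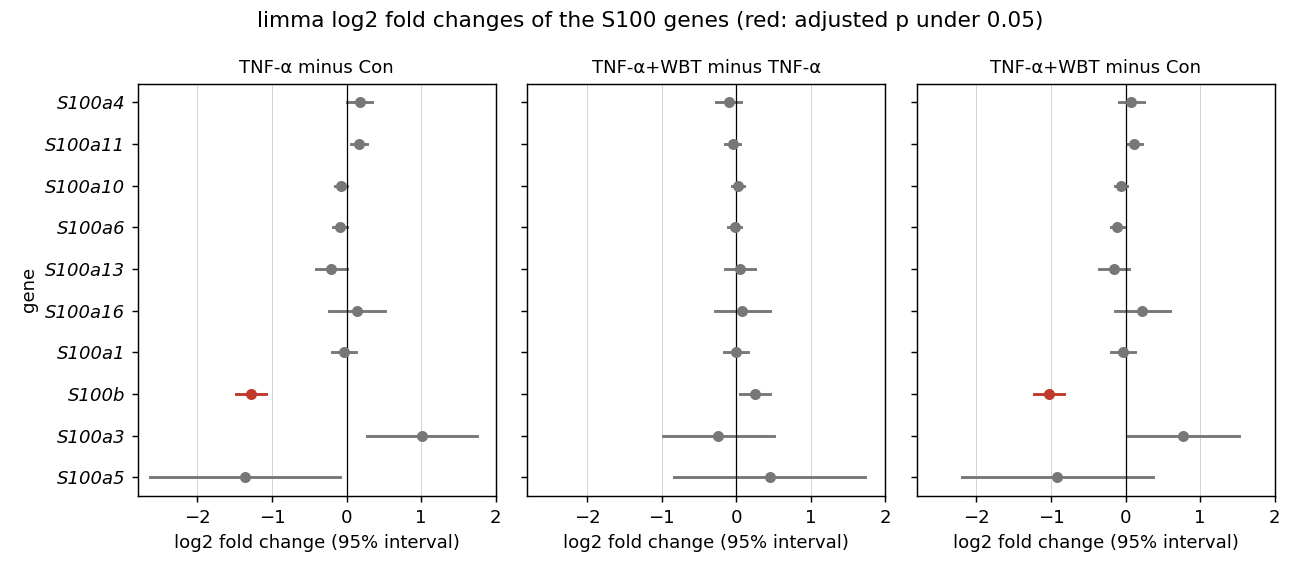
Fold change of each S100 gene on the log2(FPKM + 0.1) scale in the 3 comparisons (points, limma estimates; bars, 95% intervals; red, adjusted p under 0.05; left and right panels share the Con libraries, left and middle panels the TNF-α libraries). S100b is the sole red gene, at -1.28 for TNF-α minus Con and -1.03 for TNF-α+WBT minus Con.

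The abundant genes moved little. S100a11, which binds annexin A1, measured 308.9, 319.6 and 285.2 FPKM in Con and 339.3, 350.9 and 334.0 FPKM with TNF-α. No TNF-α library reached down into the Con range, yet the log2 difference of 0.17 (95% interval 0.06 to 0.27) had a limma adjusted p of 0.0947. For S100a4 the difference was 0.17 (0.01 to 0.34, limma adjusted p = 0.288), again with every TNF-α library above every Con library, the nearest pair being 1154 and 1131 FPKM.

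S100a6 and S100a10 leaned the other way. S100A6, or calcyclin, is a regulator of the cytoskeleton and of ubiquitin ligase complexes through its binding protein. It measured 264.7, 253.3 and 247.6 FPKM in Con and 233.1, 246.7 and 238.8 FPKM with TNF-α, a log2 difference of -0.09 (-0.18 to -0.00, limma adjusted p = 0.302). S100a10, whose protein has lost calcium binding and forms a complex with annexin A2 at membranes, measured 290.6, 283.2 and 270.0 FPKM in Con and 264.5, 269.9 and 262.6 FPKM with TNF-α. Its log2 difference was -0.08 (-0.16 to -0.00, limma adjusted p = 0.304), and its groups were separated only by the gap between 269.9 and 270.0 FPKM. Under quantile normalization S100a6 (-0.16, limma adjusted p = 0.0317) and S100a10 (-0.14, limma adjusted p = 0.0386) passed the test, and S100a11 passed (limma adjusted p = 0.0468) when genes under a mean of 1 FPKM were left out. For these 4 genes the intervals leave room for a change of no more than 26.7% upward, for S100a4, and 11.8% downward, for S100a6.

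The middle group did not pass either. S100A13 takes part in the release of FGF1 and other proteins that lack a signal peptide. S100a13 measured 19.9, 17.9 and 17.7 FPKM in Con and 15.4, 14.8 and 18.0 FPKM with TNF-α, so that TNF-α replicate 3 lay inside the Con range (log2 difference -0.20, -0.41 to -0.00, limma adjusted p = 0.307). S100a1, whose protein tunes calcium release channels in muscle and which starts 42 bases from S100a13 on the other strand, was at 11.4 to 12.6 FPKM in Con and 11.1 to 12.3 FPKM with TNF-α. The difference of -0.03 (-0.19 to 0.13, limma adjusted p = 0.892) bounds any change of S100a1 between -12.6% and 9.4%. The ratio of S100a1 to S100a13 ran from 0.606 to 0.708 in Con and from 0.655 to 0.831 with TNF-α, so that the divergent pair kept overlapping ratios.

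S100a16, a broadly expressed member linked to fat cell formation, was the most variable of the middle group, with 16.2, 11.4 and 10.2 FPKM in Con and 12.7, 15.1 and 13.2 FPKM with TNF-α (log2 difference 0.14, -0.23 to 0.52, limma adjusted p = 0.763). Its value was divided over 8 annotated transcripts, of which ENSMUST00000098911 held 30.9%. ENSMUST00000098911 itself was steady at 3.63 to 4.75 FPKM over the 9 libraries. The spread came with others. ENSMUST00000107334 was at 7.27 FPKM in Con replicate 1 and 0.193 to 3.79 FPKM in the other libraries. ENSMUST00000107331 was at most 0.000635 FPKM in Con and varied widely in the treated libraries. It was at 3.47, 1.95 and 0.445 FPKM with TNF-α and at 0.486, 3.59 and 0 FPKM with TNF-α+WBT. These transcripts share exons, so that the share each received was estimated, and no test was made on them. By contrast S100a11, S100a13 and S100b have 1 annotated transcript each, and the main transcript of S100a4 held 99.2% of its value.

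**Figure D3:**
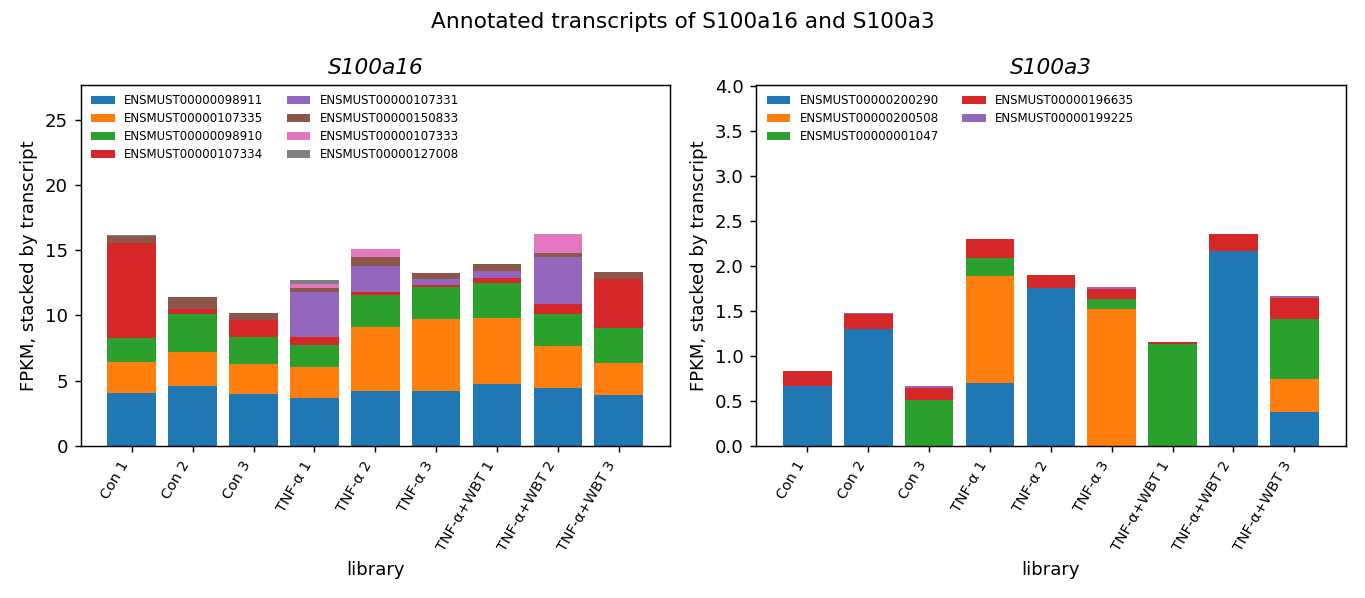
Stacked transcript levels of S100a16 (left) and S100a3 (right) in each library (vertical axis, FPKM; colours, annotated transcripts; 1 bar per library). The extra height of S100a16 in Con replicate 1 is ENSMUST00000107334 at 7.27 FPKM, and the leading S100a3 transcript changes from library to library.

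The 2 scarcest genes had large fold changes that did not pass the adjusted test. S100a3, known for its abundance in the hair cuticle, measured 0.832, 1.46 and 0.64 FPKM in Con and 2.3, 1.9 and 1.75 FPKM with TNF-α, without overlap. The log2 difference was 1.01 (0.27 to 1.76, unadjusted p = 0.0132, limma adjusted p = 0.149), on about 15.9 to 36.2 fragments per library. Gm42674, a gene annotated over exons of S100a3 and S100a4, was at 0.478, 0.885 and 0.603 FPKM in Con and listed at 0 in all 6 treated libraries. Fragments of S100a3 and Gm42674 from the shared exons cannot be told apart by position, and the part of Gm42674 in the S100a3 difference was not tested. The S100a3 value was also spread over 5 transcripts, with ENSMUST00000200290 at 49.4% overall and at 0 in 3 libraries.

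S100a5, whose protein is known from olfactory neurons, rested on at most 5 fragments in any library. It measured 0.455, 0.287 and 0.234 FPKM in Con and 0, 0.0881 and 0.123 FPKM with TNF-α, where the level was under 3 fragments in each library. The fitted log2 difference of -1.37 (limma adjusted p = 0.274) depends on the added 0.1 FPKM and went from -0.31 to -2.67 with 1 and 0.01 FPKM added, so it carries no size.

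In TNF-α+WBT against TNF-α, the comparison that asks what the extract changed in stimulated cultures, no S100 gene passed the adjusted test, and 0.00393% of all genes did. None passed the study's thresholds either, against 1.12% of all genes. S100b was the sole member with an unadjusted p under 0.05 (background 6.31%) and the sole member whose groups did not overlap (background 11%). It measured 3.01, 3.46 and 3.26 FPKM with TNF-α+WBT, each above the highest TNF-α library at 2.86 FPKM and below the lowest Con library at 6.61 FPKM. The log2 difference was 0.25 (0.05 to 0.45, unadjusted p = 0.0198, limma adjusted p = 0.703), or 19.1% of the TNF-α level with an interval of 3.6% to 36.9%. It thus missed the threshold, on about 81.7 to 101.9 fragments per TNF-α+WBT library.

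The other 9 genes overlapped between TNF-α and TNF-α+WBT. The abundant genes differed by -0.10 (S100a4), -0.05 (S100a11), 0.02 (S100a10) and -0.02 (S100a6) on the log2 scale. Their intervals were narrow, -0.26 to 0.07 for S100a4, -0.15 to 0.06 for S100a11, -0.06 to 0.10 for S100a10 and -0.11 to 0.07 for S100a6. In the middle group the differences were -0.00 for S100a1 (-0.16 to 0.16), 0.05 for S100a13 (-0.15 to 0.25) and 0.08 for S100a16 (-0.29 to 0.46). S100a5, at no more than 3 fragments in any library of either group, is given no fold, and the interval of S100a3 (-0.24, -0.98 to 0.50) reached from a change of -49.3% to one of 41.6%. The median over the 10 genes was 0.01, against -0.00 over all genes tested.

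In TNF-α+WBT against Con, which shares its Con libraries with the first comparison, S100b was lower by 1.03 on the log2 scale (-1.23 to -0.83, limma adjusted p = 0.00033), or -50.9%. It was the 1 member of 10 with an adjusted p under 0.05 (background 3.71%) and the 1 member past the study's thresholds (background 2.29%). An unadjusted p under 0.05 was reached by 4 members (background 14.7%), S100b, S100a3, S100a6 and S100a11, and the groups of 4 members did not overlap (background 19.5%). Beside S100b, the log2 differences were 0.77 for S100a3 (limma adjusted p = 0.314), -0.11 for S100a6 (limma adjusted p = 0.216) and 0.12 for S100a11 (limma adjusted p = 0.275).

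Genes of other cell types were measured beside S100b, since it is a glial and cartilage marker. Of 10 Schwann cell markers, 9 were tested and 4 were lower in TNF-α than in Con, none higher, where 1.93% of all genes were lower and 2.94% higher. Among genes with a mean of 10 FPKM or more, 10.6% passed in either direction. Ngfr (p75 neurotrophin receptor) went from 169.3 to 97.0 FPKM, a log2 difference of -0.80, Cdh19 from 86.8 to 52.9 FPKM (-0.71), Erbb3 from 59.2 to 48.6 FPKM (-0.28) and Foxd3 from 94.4 to 78.9 FPKM (-0.26), each with a limma adjusted p under 0.05. Sox9, a cartilage and neural crest factor, went from 10.8 to 6.62 FPKM (-0.70, limma adjusted p = 0.000743). It was the 1 gene of the 5 chondrocyte markers above 1 FPKM in all libraries, 3 of the 5 were tested, and Acan and Matn1 were at 0 throughout. The chondrocyte list summed to 10.8 to 11.6 FPKM in Con, 6.64 to 7.2 FPKM with TNF-α and 7.12 to 8.75 FPKM with TNF-α+WBT, and Col2a1 was at 0.132 FPKM in Con and 0.149 FPKM with TNF-α. All of these Schwann cell and Sox9 drops were smaller than that of S100b on the log2 scale. The summed Schwann cell list was at 520.7 to 535.2 FPKM in Con, 360.1 to 408.9 FPKM with TNF-α and 403.2 to 430.8 FPKM with TNF-α+WBT, and none of its genes was at 0 in all libraries.

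Not all glial genes passed the test. Sox10, the lineage factor of Schwann cells, was at 94.0 to 100.8 FPKM in Con and 77.0 to 101.4 FPKM with TNF-α (log2 difference -0.17, -0.44 to 0.09, limma adjusted p = 0.538). Pmp22, a peripheral myelin protein gene, differed by -0.06 (-0.63 to 0.51, limma adjusted p = 0.954). Both intervals include drops as large as those of Erbb3 and Foxd3. Of 11 fibroblast markers tested, 2 were higher (Col1a1 and Col1a2) and 2 lower (Pdgfrb and Postn) with TNF-α, against the same shares of all genes, with the list's sum at 3739 to 3968 FPKM in Con and 4030 to 4111 FPKM with TNF-α, and Lum at 0 throughout. The sums of the macrophage markers were 6.3 to 7.54 FPKM in Con and 7.19 to 8.37 FPKM with TNF-α. The melanocyte, keratinocyte, astrocyte and neutrophil and monocyte lists summed to at most 2.58, 2.56, 0.67 and 1.62 FPKM in any library. No gene of the macrophage, melanocyte, keratinocyte, astrocyte or neutrophil and monocyte lists passed the adjusted test. The part of these other cell type genes in the S100b result was not tested.

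**Figure D4:**
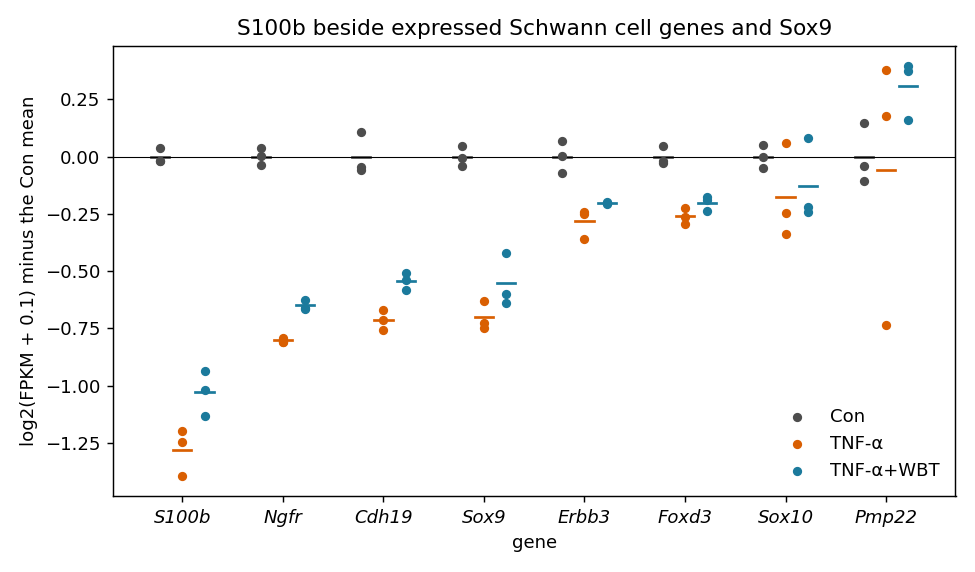
S100b, 6 Schwann cell genes above 1 FPKM in all libraries and Sox9, as log2(FPKM + 0.1) minus the Con mean of the gene (vertical axis; points, libraries; lines, group means). S100b has the lowest TNF-α points, Ngfr, Cdh19 and Sox9 lie near -0.7 to -0.8, and the Con and TNF-α points of Sox10 and Pmp22 overlap.

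The genes whose pattern over the 9 libraries was nearest to that of S100b were Tmem158, Jun and Stc2, with root mean square differences of 0.092, 0.095 and 0.107 on the log2 scale among the 12685 genes that averaged 1 FPKM or more. Jun, which encodes a subunit of AP-1, measured 101.8, 99.0 and 102.3 FPKM in Con, 41.3, 40.9 and 38.5 FPKM with TNF-α and 46.9, 49.3 and 44.9 FPKM with TNF-α+WBT. As with S100b, no TNF-α library reached the TNF-α+WBT range, and all treated libraries lay under all Con libraries. Jun was picked for its closeness to S100b over these same libraries, so this shared order follows largely from the choice. Tmem158 went from 25.2 to 10.9 FPKM and Stc2, a secreted glycoprotein, from 31.2 to 12.2 FPKM between Con and TNF-α.

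Partners of S100 proteins were taken from lists of annexins, intracellular targets and receptors. Of 11 annexins tested, 2 rose with TNF-α and none fell, where 2.94% of all genes rose and 1.93% fell. Among genes with a mean of 10 FPKM or more, 10.6% passed in either direction. Anxa1, whose protein pairs with S100A11, rose from 249.8 to 279.0 FPKM (log2 difference 0.16, limma adjusted p = 0.0167), and Anxa3 from 58.4 to 72.0 FPKM (0.30, limma adjusted p = 0.0107). The ratio of S100a11 to Anxa1 was 1.151 to 1.279 in Con and 1.186 to 1.259 with TNF-α. Anxa2, the partner of S100A10, was at 242.8 FPKM in Con and 241.0 FPKM with TNF-α (-0.01, limma adjusted p = 0.983), and S100a10 was present at 1.027 to 1.22 times its level in all 9 libraries. Anxa6 (0.01, limma adjusted p = 0.888) and Anxa11 (-0.09, limma adjusted p = 0.678), other annexins that bind S100 proteins, did not pass.

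Of 15 intracellular targets, 4 rose with TNF-α and none fell, where 2.94% of all genes rose and 1.93% fell. Among genes with a mean of 10 FPKM or more, 10.6% passed in either direction. Trp53, which encodes the p53 that S100B and S100A4 bind, measured 91.3, 89.6 and 89.0 FPKM in Con and 139.4, 134.4 and 132.2 FPKM with TNF-α, a log2 difference of 0.59 (limma adjusted p = 1.38e-05). Tpm1, a tropomyosin, rose from 152.9 to 217.6 FPKM (0.51, limma adjusted p = 3.1e-05). Myh9, the non-muscle myosin heavy chain that S100A4 binds, rose from 157.7 to 184.1 FPKM (0.22, limma adjusted p = 0.00318), and the scaffold gene Iqgap1 from 60.3 to 66.7 FPKM (0.15, limma adjusted p = 0.0347). Ahnak, a large partner of the S100A10 and annexin A2 complex, was at 42.4 and 39.7 FPKM (-0.09, limma adjusted p = 0.446), and Cacybp, the calcyclin-binding protein gene, at 39.1 and 37.8 FPKM (-0.05, limma adjusted p = 0.727).

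Of 9 receptors and surface partners tested, 1 rose, the heparan sulphate proteoglycan gene Sdc4, from 43.8 to 52.1 FPKM (0.25, limma adjusted p = 0.0134). Again 2.94% of all genes rose and 1.93% fell, and 10.6% of genes averaging 10 FPKM or more passed in either direction. Ager, which encodes RAGE, was low at 0.987 to 2.3 FPKM, and Cd36 was listed at 0 in all libraries. Bsg, the basigin gene and the most abundant of the list, was at 431.8 FPKM in Con and 478.6 FPKM with TNF-α (0.15, limma adjusted p = 0.352). Of 14 other EF-hand sensors tested, 2 rose, Rcn1 (57.0 to 68.5 FPKM, limma adjusted p = 0.00509) and Cib1 (11.1 to 13.6 FPKM, limma adjusted p = 0.0402), against the same shares. The median log2 differences in TNF-α against Con were -0.01 for the annexins, 0.05 for the targets, 0.12 for the receptors and 0.08 for the EF-hand sensors, against 0.00 for all genes.

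**Figure D5:**
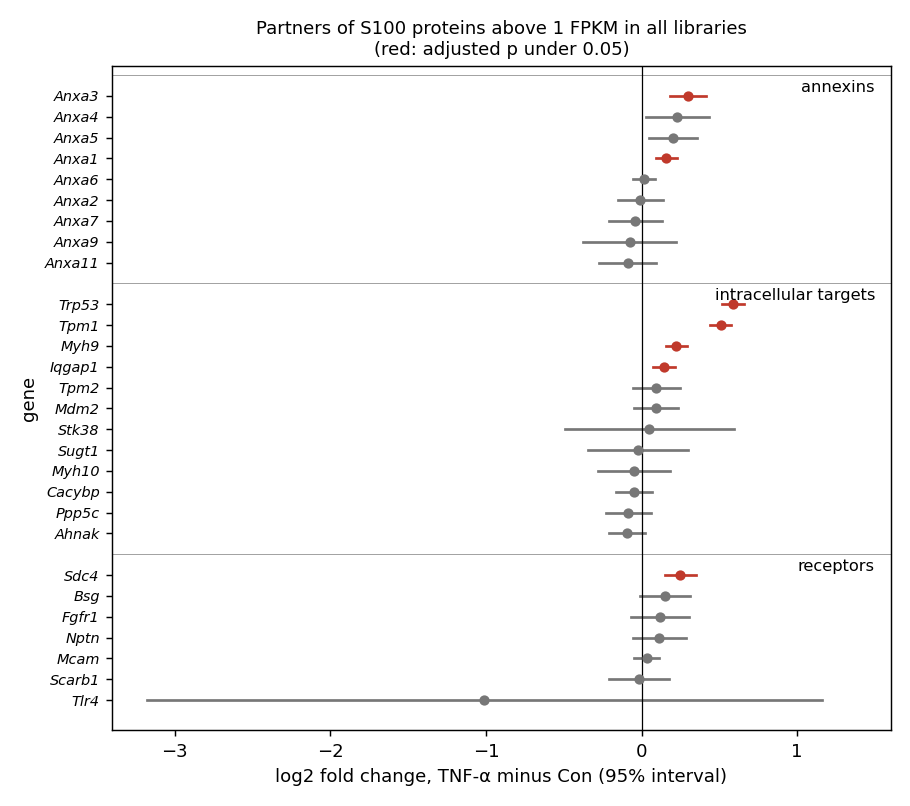
Fold change in TNF-α minus Con (horizontal axis, log2 scale, 95% intervals) of 9 annexins, 12 intracellular targets and 7 receptors above 1 FPKM in all libraries (red, adjusted p under 0.05). Trp53 at 0.59 and Tpm1 at 0.51 lie furthest to the right among the genes that passed, and Tlr4 has the widest interval.

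No gene of these 4 lists passed the adjusted test in TNF-α+WBT against TNF-α. In TNF-α+WBT against Con, 1 annexin (Anxa3), 3 targets (Trp53, Tpm1 and Myh9) and 2 receptors (Sdc4 and Bsg) were higher, and no EF-hand sensor passed, where 2.31% of all genes were higher and 1.4% lower. Among genes with a mean of 10 FPKM or more, 7.86% passed in that comparison. Bsg reached 538.4 FPKM there, 0.32 above Con on the log2 scale (limma adjusted p = 0.0474).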

How the data were processed

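The authors deposited FPKM per gene (56289 genes) and per transcript (144726 transcripts) for 9 libraries, made with HISAT2, StringTie and Ballgown. Tool versions and the genome build are not given in the sources used here. Symbols and positions came from GENCODE M21 (98.0% of genes matched). No pair of libraries was identical. Depth was estimated from 10720 single-transcript genes over 1000 bases, and the limit of detection (3 fragments) covers counting error only. The 95% intervals of fold changes are from limma and rest on the spread between libraries.

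Genes above 0 in at least 3 libraries were fitted with limma 3.58.1 (R 4.3.3) on log2(FPKM + 0.1), which understates changes of low genes, with 3 group means, eBayes with a trend and Benjamini-Hochberg adjustment over all 25417 genes. The test was tested on simulated data, with independent counts and the same extra spread for every gene. That setting does not cover genes that vary more between libraries. Changes were simulated only in genes averaging 1 FPKM or more, so changes of scarcer genes such as S100a5 are not covered either. Tables used Python 3.11.15, pandas 2.3.3, numpy 2.4.6 and scipy 1.17.1. The members, gene lists, markers and tests were chosen with earlier results of these data known. All members were named. Of each partner list, Anxa1, Anxa2, Anxa6, Anxa11, Ahnak, Cacybp and Myh9 and up to 3 genes with the smallest p among adjusted calls were named, and others after their values were seen. Pattern neighbours at a mean of 10 FPKM did not apply to S100b, and a mean of 1 FPKM was chosen after seeing the data. Alternatives covered pseudocounts of 1 and 0.01 FPKM, filters, trend, groups fitted, centring, quantile normalization, summed transcripts, a replicate block and each library left out. Some genes of the marker lists are not reported here.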

Additional observations from a re-analysis of the deposited data

How the results depend on the processing

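S100b was lower than Con under all 10 alternative settings and all 9 omissions of a library, by log2 -1.31 to -1.06 and -1.32 to -1.22 with TNF-α, and its adjusted p in limma stayed at or under 0.00141. With TNF-α+WBT it was lower than Con by -1.05 to -0.86 and -1.07 to -0.98, with an adjusted p of at most 0.00462. Its excess in TNF-α+WBT over TNF-α was 0.19 to 0.26 over the settings, with an adjusted p of 0.63 or more. The number of S100 genes with an adjusted p under 0.05 in TNF-α against Con was 1, became 2 with genes of a mean of at least 1 FPKM, where S100a5 was not tested and S100a11 entered at an adjusted p of 0.0468, and 3 under quantile normalization, where S100a6 (-0.16, adjusted p 0.0317) and S100a10 (-0.14, adjusted p 0.0386) entered. The cause was not tested. The number past the study's thresholds in TNF-α against Con was 3, became 1 with 1 FPKM added, and ran from 1 to 3 with a library left out, with 1 without Con replicate 1, Con replicate 3 or TNF-α replicate 1. It was 2 with 0.01 FPKM added, under quantile normalization and with summed transcripts. The number was also 2 without a filter, and with genes of a mean of at least 1 FPKM. In TNF-α+WBT against Con it was 1, became 0 with 1 FPKM added, and ran from 1 to 2 with a library left out, with 2 without Con replicate 2 or TNF-α+WBT replicate 1.

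Changes of sign occurred only where the adjusted p was 0.908 or more. S100a6 in TNF-α+WBT against TNF-α was 0.0109 under quantile normalization. With a library left out, S100a1 ran from -0.0685 to 0.00765 in TNF-α against Con, from -0.0424 to 0.0608 in TNF-α+WBT against TNF-α and from -0.0708 to 0.0284 in TNF-α+WBT against Con. In TNF-α+WBT against TNF-α, S100a3 ran from -0.49 to 0.00397, S100a5 from -0.12 to 1.02, S100a6 from -0.0404 to 0.00331, S100a13 from -0.00713 to 0.13 and S100a16 from -0.00145 to 0.16.

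Same-numbered libraries did not deviate together (correlations of -0.05 to 0.098 over 9 pairs), so no effect shared by number was seen. Samples paired by number with only a small shared effect would look the same. With the replicate number as a block the counts of S100 genes with an adjusted p under 0.05 stayed at 1, 0 and 1 in the 3 comparisons. Over all genes the adjusted calls in TNF-α against Con were 1236 and ran from 828 to 1369 over all alternatives, those in TNF-α+WBT against Con were 942 and ran from 588 to 1055, and those in TNF-α+WBT against TNF-α were 1 and ran from 0 to 11. Past the study's thresholds the calls were 615 (128 to 1057), 583 (105 to 1040) and 284 (8 to 639). Depth limits S100a5, at no more than 5 fragments per library, and S100a3.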

Other observations

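Tlr4, a receptor for several S100 proteins, took separate levels that did not follow the groups, and it is described here after its values were seen. It measured 13.6, 12.5 and 2.24 FPKM in Con, 2.36, 1.66 and 11.4 FPKM with TNF-α and 13.6, 3.3 and 2.75 FPKM with TNF-α+WBT. High and low libraries thus occurred in every group, and no comparison passed the adjusted test (limma adjusted p = 0.699 for TNF-α against Con).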
